A study of Mus musculus with 26 samples.

Results

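Genes known from mast cells and basophils were examined in bulk RNA-seq of mouse lung group 2 innate lymphoid cells (ILC2s). The 8 genes are Fcer1a, Ms4a2 and Fcer1g (the high-affinity IgE receptor), Cpa3, Hdc and Mcpt8 (granule protease and amine genes), and Kit and Gata2 (a growth factor receptor and a transcription factor). They were chosen by name, as known genes of these cells, with earlier results of these data known. Each symbol matched 1 Ensembl row among the 55401 gene identifiers counted. The counts were read library by library, first in naïve C57BL/6J ILC2s and then in the CC030 groups.

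In the first experiment, ILC2s were sorted from lungs of unchallenged, untreated female mice, with 3 wild-type CC030GeniUnc (CC030) and 3 wild-type C57BL/6J libraries. CC030 is an inbred Collaborative Cross strain. In the second, cells of 5 CC030 mice were kept apart and cultured with 10 ng/mL IL-33, 10 ng/mL TSLP and 100 U/mL IL-2, with either 10 µM AR420626, an agonist of the short-chain fatty acid receptor FFAR3, or DMSO vehicle, and were harvested on day 2 and day 6. The mice were age-matched adults of 8 to 16 weeks. Both sorts removed cells stained for lineage markers, with CD3, CD4 and FcεR1 among them. The naïve gate then took CD90+ CD127+ CD25+ ICOS+ cells and the culture gate CD90+ CD127+ ST2+ cells, so the cells before culture were not chosen in the same way.

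IgE bound to the high-affinity receptor FcεRI arms mast cells and basophils. The α chain (Fcer1a) holds IgE, the β chain (Ms4a2) amplifies the signal and in mice is needed to bring the receptor to the surface, and the γ chain (Fcer1g) carries the signal and is shared with other Fc receptors of myeloid and NK cells. Mast cell granules store carboxypeptidase A3 (Cpa3) and histamine, which histidine decarboxylase (Hdc) makes, and Mcpt8 encodes a protease used as a basophil marker in mice. Kit is the receptor for stem cell factor, on which mast cells depend, and Gata2 is a transcription factor of mast cells, basophils and blood progenitors that binds GATA motifs.

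The bases just before the starts of Cpa3, Fcer1a and Ms4a2 are shown because these 3 genes span the naïve C57BL/6J levels, the highest, a middle one and none. They are RefSeq sequence, build GRCm38.p6, all on the minus strand, 120 bases each ending at the base before the start. Capitals mark matches to any of the 4 GATA motifs searched on either strand. The letters searched were AGATAA, then with another last base AGATAG, then with another first base TGATAA, and with both changes TGATAG.
Cpa3, chr3:20242182-20242301: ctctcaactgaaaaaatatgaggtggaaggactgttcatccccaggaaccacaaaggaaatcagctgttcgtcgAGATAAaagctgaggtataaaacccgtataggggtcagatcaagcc
Fcer1a, chr1:173227230-173227349: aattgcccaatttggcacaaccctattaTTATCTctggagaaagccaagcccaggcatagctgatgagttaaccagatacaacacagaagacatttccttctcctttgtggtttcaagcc
Ms4a2, chr19:11623720-11623839: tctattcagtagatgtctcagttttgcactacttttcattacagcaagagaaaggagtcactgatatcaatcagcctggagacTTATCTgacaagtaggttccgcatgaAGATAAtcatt
A motif lay 46 bases before the Cpa3 start and 92 bases before the Fcer1a start. Ms4a2 had 3, at 224, 37 and 11 bases. In the 250 bases before a start, 4 of the 8 genes (Hdc is the fourth, at 221 bases) had at least 1 match. Counted by start, since some genes have more than 1, it was 4 of 10 starts, against 26.5% of the 32851 mouse promoters in the same table. Fcer1g, Kit, Gata2 and Mcpt8 had none. Fcer1g and Kit were also at middle C57BL/6J levels and Mcpt8 also had no count. The 3 sequences shown are thus all from genes with a motif, and do not stand for all 8. The matches are a description of the letters, and Ms4a2, with the most matches, had no count in C57BL/6J.

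Naïve CC030 libraries had totals of 1324595 to 1524751 counts spread over 43527 to 46111 genes, and naïve C57BL/6J libraries 13533363 to 15234305 counts over 15946 to 16553 genes. Cultured CC030 totals ran from 227445 to 5320028 counts. In the cultured table only 2.06% to 11.1% of the reads the counter tallied fell in genes. The ILC2 label was checked against 18 ILC2 markers. Their summed level was 473 to 501 CPM (counts scaled to a library total of 1000000 counts in genes) in CC030, against 12164 to 13987 CPM in C57BL/6J, where 17 of 18 had at least 10 counts in every library. In CC030 Il2rg, the common γ chain of cytokine receptors, had 8, 9 and 1 counts, against 18726, 22702 and 27975 in C57BL/6J. Counts under the ILC2 genes therefore went against the label in CC030, although the sort had gated on several of their products. C57BL/6J replicate 3 stood apart: its macrophage, monocyte and neutrophil markers summed to 988 CPM (0.222 and 12.8 in replicates 1 and 2) and its lung structural markers to 11386 CPM (64.5 and 40.5). In replicate 3, Lyz2 alone made up 967 CPM of the first sum and Sftpc 11300 CPM of the second. Cd68 had 17.6 CPM there, and Itgam, Adgre1, Fcgr1, S100a8 and S100a9 had no count. Each member is therefore given library by library, and the strain comparison of Fcer1a also without that library. The means and SDs include it.

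Cpa3 was the most abundant of the 8 genes in naïve C57BL/6J ILC2s. It had 5107, 9407 and 3031 counts, or 377, 652 and 199 CPM, in replicates 1 to 3 (410 ± 228 CPM, SD, n = 3). Per exonic kilobase it averaged 270 CPM, rank 261 of 21897 protein-coding genes. The lowest C57BL/6J library still held 3031 Cpa3 counts, and the libraries differed by 3.28-fold.

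Kit followed in CPM, with 206, 149 and 119 CPM (158 ± 44.1, SD, n = 3) from 2786, 2144 and 1816 counts. Kit was the steadiest member, 1.73-fold from lowest to highest, and its level per exonic kb was 0.288, 0.256 and 0.264 of that of Il2ra, the gene of CD25 used in the sort. The ratio of Cpa3 to Kit was less steady, at 10.8, 25.8 and 9.80 on the same scale. Cpa3 was highest in replicate 2 and Kit in replicate 1.

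Of the receptor chains, 2 of 3 were detected. Fcer1a had 481, 206 and 96 counts in C57BL/6J (35.5, 14.3 and 6.30 CPM), and Fcer1g had 99, 221 and 286 (7.32, 15.3 and 18.8 CPM). The α chain was highest where the γ chain was lowest, and their per-kilobase ratio was 4.25, 0.816 and 0.294 in replicates 1 to 3. Ms4a2, the β chain, had 0 counts in all 3 libraries. With 3 counts as the limit that a count of 0 allows, its level was at most 0.222, 0.208 and 0.197 CPM. These limits cover counting error only. Fcer1g was highest, and Fcer1a, Cpa3 and Kit were lowest, in replicate 3, the library with the most Lyz2 and Sftpc counts. The part of other cells in these values was not tested.

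Hdc was low but present in every C57BL/6J library, with 92, 182 and 115 counts (6.80, 12.6 and 7.55 CPM). Per exonic kilobase it averaged 1.41 CPM, against 270 for Cpa3 and 17.7 for Kit. Gata2 had 15, 1 and 7 counts (0.546 ± 0.525 CPM, SD, n = 3), and Mcpt8 had 0 in each. Gata2 and Mcpt8 were thus at or near the bottom, while Gata3, a related factor that ILC2s require, had 2563, 2997 and 4559 counts. In these bulk samples fewer cells of a type and less RNA per cell cannot be told apart.

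By level per exonic kilobase in C57BL/6J the order was Cpa3 (270 ± 151, SD), Fcer1a (18.7 ± 15.1), Kit (17.7 ± 4.94), Fcer1g (15.8 ± 6.73), Hdc (1.41 ± 0.496) and Gata2 (0.101 ± 0.0972), with Ms4a2 and Mcpt8 at 0 (n = 3 each). Fcer1a, Kit and Fcer1g lay within their spread of each other. Cpa3 lay above all of them in every library, and Hdc below them in every library.

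**Figure D1:**
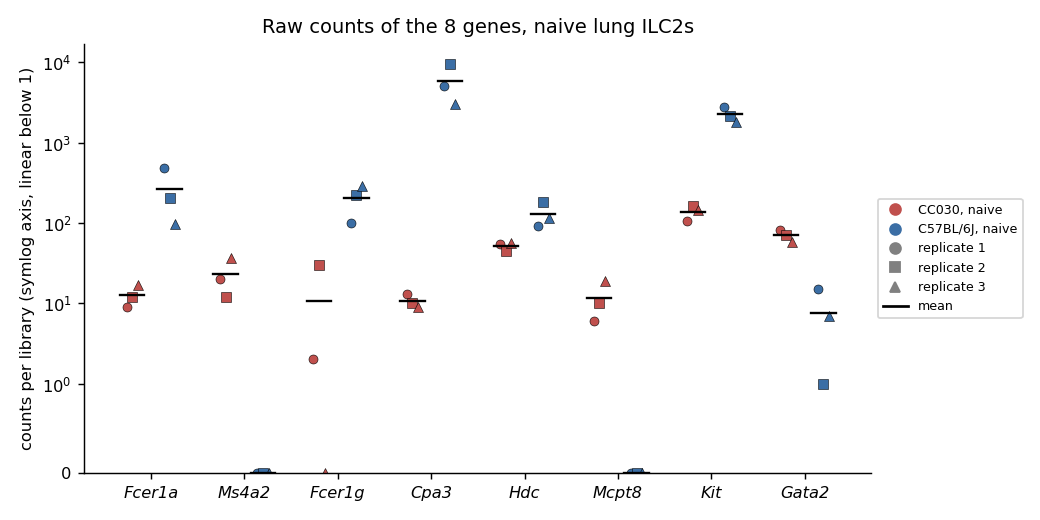
Raw counts of the 8 genes in naïve CC030 (red, left of each pair) and naïve C57BL/6J ILC2s (blue, right), 1 point per library with its replicate number as the shape and a bar at the mean, on a symlog axis that is linear below 1. Cpa3 had at most 13 counts in CC030 and up to 9407 in C57BL/6J, while Ms4a2 and Mcpt8 were between 6 and 37 in CC030 and at 0 in C57BL/6J.

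Other mast cell and basophil genes were checked in C57BL/6J. Of 16 granule and mediator genes, 7 had no count in any library and 11 had at most 3 counts in every library. Among them, Mrgprb2 and Mcpt9, a receptor and a protease of connective tissue mast cells, were at 0, and Tpsab1, a tryptase, had 0, 1 and 0 counts. Srgn, Alox5 and Hpgds were the 3 that reached 10 counts in each library. Srgn, the granule proteoglycan serglycin found in many blood cells, had 24468, 26714 and 17069 counts, and Alox5, an enzyme of leukotriene synthesis, had 1178, 264 and 4074. Slc18a2, of the same list, had 0, 246 and 155. Of 11 basophil genes, 2 had no count in any library and 3 had at most 3 counts in every library. In contrast, 4 (Cd9, Cd200r3, Csf1 and Osm) reached 10 counts in each. Prss34 (a basophil protease) had 0, 1 and 0 counts, and Cd9, a membrane protein of many cells, had 764, 677 and 3175. Csf1 had 72, 74 and 369, and Osm 122, 99 and 321. Cd200r3, a basophil and mast cell receptor named after its values were seen, had 94, 142 and 280. The proteases of both lists were thus at or near 0 in the libraries in which Cpa3 had 3031 or more counts. Other genes of both lists were counted in every library.

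The signaling genes below FcεRI and Kit were mostly present: 13 of 18 had at least 10 counts in every C57BL/6J library. The adaptor gene Lat, which is also a lymphocyte gene, had 2788, 3466 and 7637 counts.

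NK cell and ILC1 markers were at 0 in all 3 C57BL/6J libraries (7 of 7 genes), and 5 eosinophil markers had at most 3 counts. T cell markers summed to 1643, 1903 and 1250 CPM in replicates 1 to 3, although the sort removed cells stained for CD3 and CD4. Trbc2, Cd3g and Trbc1 were the highest of the 11, at means of 583, 531 and 417 CPM. Cd3d (33.1), Trac (24.2), Cd3e (7.46), Cd4 (2.26) and Cd6 (0.0246) were lower, and Cd5, Cd8a and Cd8b1 had no count. B cell markers, with Ighm the highest, summed to 315, 254 and 760 CPM. Platelet and red cell markers, with Hba-a1 (a globin gene) the highest, summed to 440, 328 and 195 CPM, and were thus highest in replicate 1 and lowest in replicate 3, as were Fcer1a and Kit. Whether such cells were present, and their part in the member levels, was not tested.

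Naïve CC030 libraries gave low counts under every one of the 8 genes. Cpa3 had 13, 10 and 9 counts in CC030 (9.81, 6.67 and 5.90 CPM), against 5107, 9407 and 3031 counts in C57BL/6J. Cpa3 was 54.9-fold lower in mean CPM. Its log2 fold change was -7.03 ± 0.70 (SE, edgeR quasi-likelihood test, adjusted p = 0.00046).

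Kit had 105, 163 and 143 counts in CC030 (79.3, 109 and 93.8 CPM), against 206, 149 and 119 CPM in C57BL/6J. The groups did not overlap, and the log2 fold change was -1.97 ± 0.41 (SE, edgeR, adjusted p = 0.00229). On plain library totals it was -0.70 ± 0.36 (adjusted p = 0.105, edgeR), so that call rested on the scaling.

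Fcer1a had 9, 12 and 17 counts in CC030 (6.79, 8.0 and 11.1 CPM), against 35.5, 14.3 and 6.30 CPM in C57BL/6J. The groups overlapped, and the log2 fold change of -2.37 ± 0.84 (SE, edgeR, adjusted p = 0.0324) lost its call with DESeq2 size factors in edgeR (-1.84, adjusted p = 0.0807), on plain library totals (-1.06, adjusted p = 0.221), without C57BL/6J replicate 1 (-1.81, adjusted p = 0.0581) and without any 1 of the CC030 libraries (adjusted p = 0.118, 0.108 and 0.0824 without replicates 1 to 3). Without C57BL/6J replicate 3 it was -3.19 ± 0.59 (adjusted p = 0.00145). Fcer1g had 2, 30 and 0 counts in CC030, against 99, 221 and 286 in C57BL/6J, with a log2 fold change of -2.09 ± 1.39 (SE, edgeR, adjusted p = 0.205). CC030 replicate 2 decided that value, since without it the log2 fold change was -5.37 ± 1.54 (edgeR, adjusted p = 0.0216). Without CC030 replicate 1 or 3 Fcer1g was not called. Fcer1g passed the filter on low counts only through C57BL/6J, so a difference was built into its being tested.

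Ms4a2 had 20, 12 and 37 counts in CC030, against 0, 0 and 0 in C57BL/6J, at least 75.6-fold higher in CPM with 3 counts per library as the floor (edgeR, adjusted p = 0.000499). Mcpt8 had 6, 10 and 19, against 0, 0 and 0, at least 37.7-fold higher (edgeR, adjusted p = 0.000661). Gata2 had 82, 71 and 58 counts in CC030, against 15, 1 and 7 in C57BL/6J, a log2 fold change of 5.25 ± 1.05 (SE, edgeR, adjusted p = 0.00195). The CPM of Ms4a2, Mcpt8 and Gata2 were thus above every C57BL/6J library in all 3 CC030 libraries. These 3 genes passed the filter on low counts only through CC030, so a difference was built into their being tested. With no filter their adjusted p were 0.00031 for Ms4a2, 0.000586 for Mcpt8 and 0.00186 for Gata2 (edgeR).

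Hdc had 54, 45 and 56 counts in CC030 (40.8, 30.0 and 36.7 CPM), against 6.80, 12.6 and 7.55 CPM in C57BL/6J. The CPM did not overlap, but the log2 fold change of 0.77 ± 0.60 (SE, edgeR) did not pass (adjusted p = 0.272). With DESeq2 it was 1.35 ± 0.54 and passed (adjusted p = 0.0168), and on plain library totals 2.04 ± 0.56 (edgeR, adjusted p = 0.0109).

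All 8 genes passed the filter on low counts (1.33 CPM in 3 libraries), Ms4a2, Mcpt8 and Gata2 only through their CC030 counts and Fcer1g only through its C57BL/6J counts. Of all genes tested, 73.8% passed only through CC030, so the counts that follow are descriptions. By edgeR, 3 of the 8 were higher in CC030 (64.1% of the 35551 genes tested were) and 3 were lower (12.2% of genes were). CPM did not overlap between the strains for 6 of the 8 genes, as for 69.9% of all genes with a count. The median log2 fold change of the 8 was -0.60, against 7.03 for all genes tested.

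**Figure D2:**
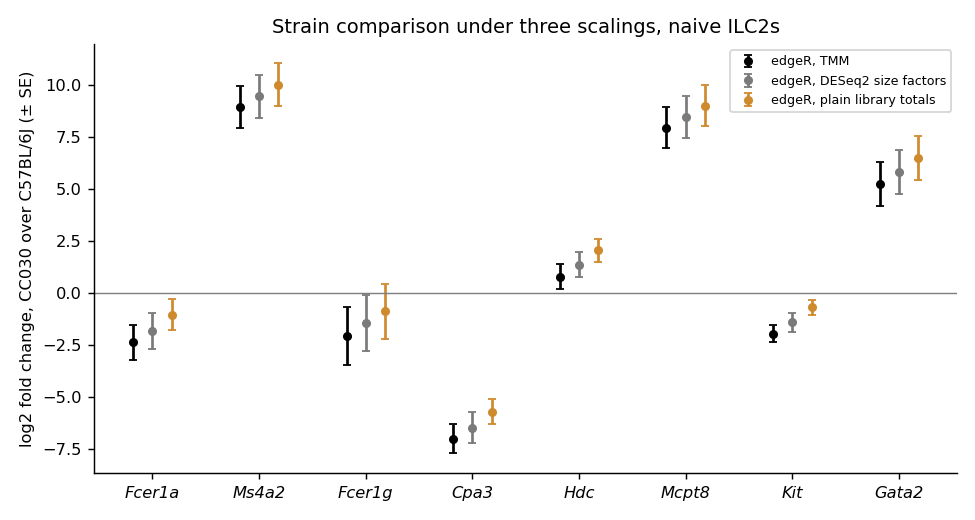
Log2 fold change of the 8 genes in naïve CC030 over naïve C57BL/6J ILC2s, with SE bars, under TMM scaling (black), DESeq2 size factors (grey) and plain library totals (orange), all by edgeR. The scaling moves every gene up together, by about as much for Cpa3 as for Kit, and no gene crosses 0. Kit is at -1.97 with TMM and at -0.70 on plain totals.

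The lists of other genes went in both directions. The genes that passed the filter only through CC030 numbered 10 of 14 tested in the granule list, 6 of 10 in the basophil list, 5 of 18 in the signaling list, 8 of 14 among the transcription factors and 1 of 18 among the ILC2 markers, and the counts are descriptions. Of all 35551 genes tested, 73.8% passed only through CC030, 64.1% were called higher in CC030 and 12.2% lower. The granule list ran close to the first 2 of these shares. Of 16 mast cell granule and mediator genes, 14 were tested, 9 were higher in CC030, 2 (Srgn and Alox5) were lower and 3 (Hpgds, Ltc4s and Slc18a2) did not pass, with a median log2 fold change of 7.53 against 7.03 for all genes. Srgn had 34, 26 and 23 counts in CC030, against 24468, 26714 and 17069 in C57BL/6J. Tpsab1 had 17, 36 and 24 counts in CC030, against 0, 1 and 0 in C57BL/6J. Of 11 basophil genes, 10 were tested, 4 (Prss34, Cyp11a1, Ccl3 and Itga2b) were higher and 1 (Cd9) was lower. Of 18 signaling genes, 4 (Btk, Plcg1, Plcg2 and Gab2) were higher and 5 (Fyn, Lat and Lcp2 among them) lower. Of 14 transcription factors, 4 (Mitf, Tal1, Lyl1 and Cebpa) were higher and 5 (Gata3, Lmo4, Cebpb, Hes1 and Bhlhe40) lower. Of 18 ILC2 markers, 1 (Ptgdr2) was higher and 15 were lower, with a median log2 fold change of -5.18.

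Of other cell types' markers, 5 of 5 tested NK cell and ILC1 markers (Tbx21, Gzma, Klrb1c, Eomes and Prf1), 4 of 4 tested eosinophil markers (Prg2, Ccr3, Epx and Ear6) and 6 of 8 tested macrophage, monocyte and neutrophil markers were higher in CC030, and none of these was lower. All genes tested in these lists passed the filter only through CC030, so a difference was built into their being tested, and the counts are descriptions. Of all genes tested, 64.1% were called higher in CC030 and 12.2% lower. The other lists were split. Among T cell markers 3 (Cd8a, Cd6 and Cd5) were higher and 3 (Cd3g, Trbc1 and Trbc2) lower, and among B cell markers 1 (Pax5) was higher and 2 (Cd79b and Ighm) lower. Among platelet and red cell markers 2 (Alas2 and Hbb-bs) were higher and 3 (Ppbp, Pf4 and Hba-a1) lower, and among lung structural markers 1 (Col1a1) was higher and 2 (Sftpc and Epcam) lower. In CC030 the NK cell and ILC1 list summed to 72.5 to 98.4 CPM, and the eosinophil list to 45.9 to 68.7, against 0 and at most 0.222 CPM in C57BL/6J. Their part in the member values was not tested.

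Set per exonic kilobase, the members converged in CC030. The 8 group means ran from 4.92 to 10.5 CPM per kb in naïve CC030, against 0 to 270 in naïve C57BL/6J. The median protein-coding gene was at 7.15 CPM per kb in CC030, against 0.169 in C57BL/6J. The members thus lay on both sides of the median coding gene in CC030. Cpa3 was at the 26.3rd percentile of coding genes in CC030, against the 98.8th in C57BL/6J, and Ms4a2 was at the 33.5th in CC030, against no count in C57BL/6J. Only 4.76% of coding genes had no count in any CC030 library, against 35.5% in C57BL/6J.

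**Figure D3:**
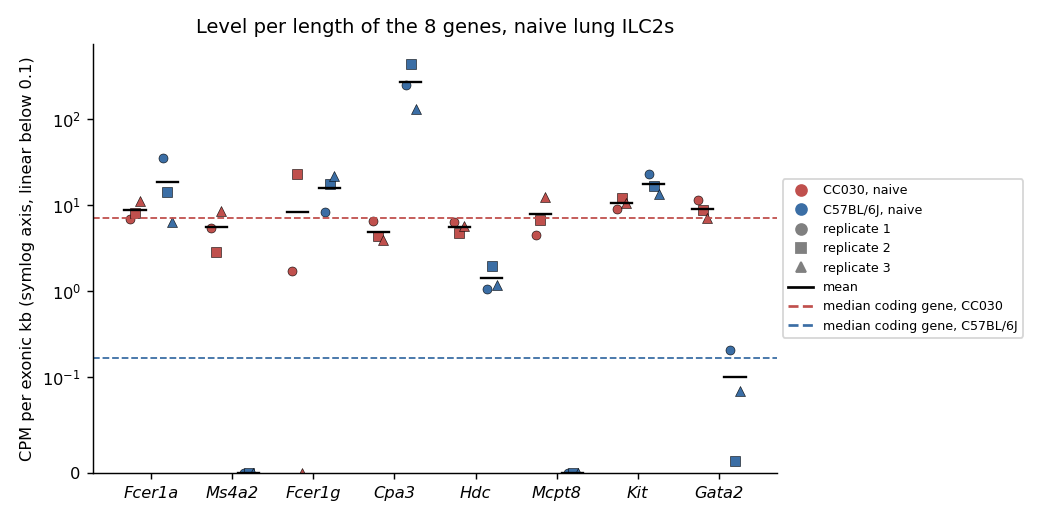
CPM per exonic kilobase of the 8 genes in naïve CC030 (red) and naïve C57BL/6J ILC2s (blue), 1 point per library, bars at the means, and dashed lines at the median protein-coding gene (7.15 in CC030 and 0.169 in C57BL/6J). The CC030 means lie between 4.92 and 10.5, close to the CC030 line, whereas the C57BL/6J means span 0 to 270.

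Because CC030 reads were aligned to a different reference and converted, gene positions around the members were checked. Across the 82 to 469 genes within 4 Mb of each member, the CC030 level per exonic kb was compared with the mean C57BL/6J level at the same exon positions, and at positions moved by up to 3 Mb in 1 kb steps. At no shift, Spearman's rho across genes ran from -0.134 to 0.0704 over the 8 neighbourhoods in naïve CC030. For a C57BL/6J library set against the mean of the other libraries of its strain it ran from 0.677 to 0.799. These are descriptions across neighbouring genes, which are not independent.

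The best shift lay within 5 kb of 0 for 0 of 8 members in naïve CC030, and for 8 of 8 in C57BL/6J replicate 1. The highest rho over all shifts in naïve CC030 was 0.171 to 0.385, and it is the maximum of many values. For Hdc, the best shift was -1354, -804 and -1366 kb in replicates 1 to 3, and for Cpa3 429, 481 and -2773 kb. It was 604, -1336 and -1341 kb for Fcer1a and 1488, 144 and 139 kb for Ms4a2. A pair of libraries lay within 20 kb of each other for 4 of 8 members (Fcer1a, Ms4a2, Hdc and Mcpt8), and all 3 libraries for 0 of 8, so no member was reassigned. At the best shift of the mean, Fcer1a (-1336 kb) would lie over exons of Cd84 (321 bp) and Hdc (-1356 kb) over Dut (302 bp), Kit (-599 kb) over Gm18593 and Gm42576, and Ms4a2 (139 kb) over Gif. Whether the reads counted under a symbol in CC030 came from that gene was not tested, and CC030 values are given as counts under a symbol.

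**Figure D4:**
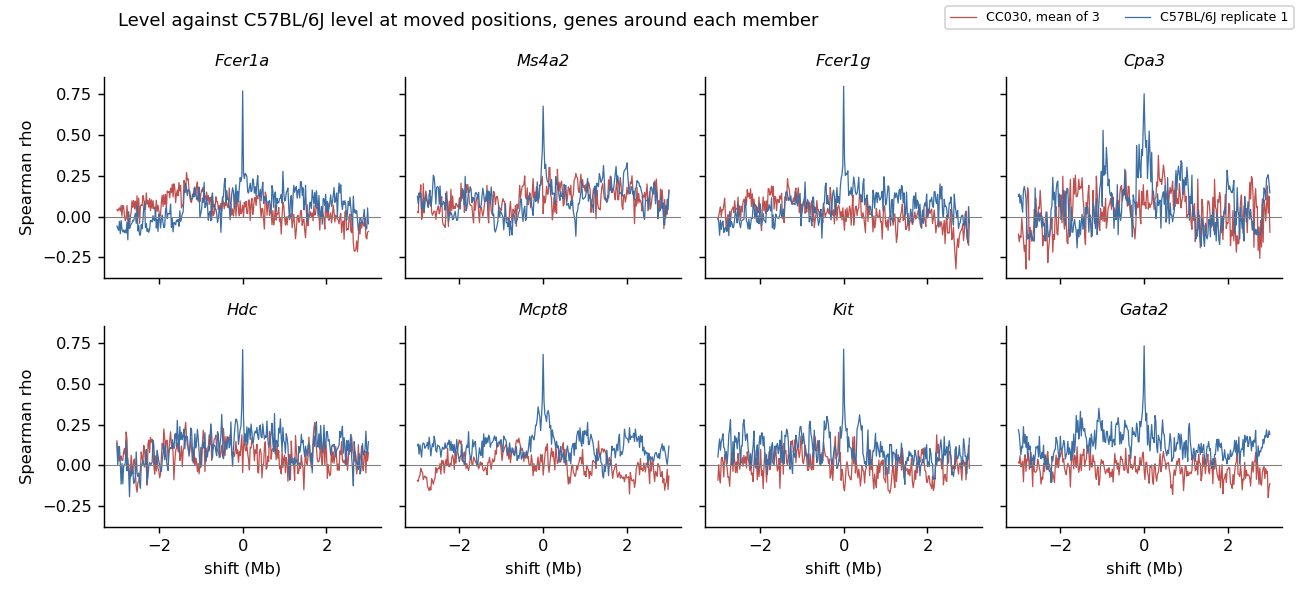
Spearman's rho across the genes within 4 Mb of each member, plotted every 20 kb, of the naïve CC030 level (red, mean of 3 libraries) and of C57BL/6J replicate 1 (blue) with the C57BL/6J level at positions moved by the shift on the x axis in Mb. The blue curves peak at no shift, with rho of 0.677 to 0.799 there, and the red curves have no such peak.

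In cultured CC030 ILC2s the members stayed low. Over the 20 libraries Kit had 3 to 69 counts (median 28), Hdc 2 to 56 (median 25) and Gata2 1 to 46 (median 14.5). Cpa3 had 0 to 27 counts (median 4.5), Ms4a2 0 to 23 (6.5), Fcer1a 0 to 48 (6), Fcer1g 0 to 9 (4) and Mcpt8 0 to 13 (2). Kit, Hdc and Gata2 had a count in every library, while Mcpt8 was at 0 in 7 and Fcer1g in 6 of 20. The same caution on gene positions held for them, with rho at no shift of -0.143 to 0.131 in the cultured libraries.

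AR420626 was set against vehicle within each mouse. On day 2, 6 of the 8 genes passed the filter and 0 were called by edgeR (0% of 20865 genes were called, 403 had an unadjusted p under 0.05, and DESeq2 called 15). Hdc had 23.5, 15.4, 26.4, 8.79 and 23.5 CPM with AR420626, against 24.3, 14.4, 25.5, 19.7 and 0.564 CPM with vehicle, in mice 1 to 5. Kit had 55.9, 54.7, 58.1, 13.2 and 25.5 CPM with AR420626, against 44.4, 26.9, 57.9, 47.2 and 3.38 CPM with vehicle. The low values in both genes came from mouse 4 with AR420626, the shallowest library (227445 counts), and mouse 5 with vehicle, the deepest (5320028 counts). Leaving mice 4 and 5 out called 0 genes as well, an alternative chosen after seeing the data.

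On day 6, 3 of the 8 genes passed the filter and 0 were called by edgeR or DESeq2, with an unadjusted p under 0.05 for 0 of them, while 11.4% of 9421 genes were called. Hdc had 23.3, 8.45, 18.1, 17.5 and 17.6 CPM with AR420626, against 29.7, 17.4, 21.9, 15.8 and 21.4 CPM with vehicle, lower in 4 of 5 mice (log2 fold change -0.47 ± 0.36, SE, edgeR, adjusted p = 0.413). Kit had 25.0, 13.4, 18.1, 8.35 and 6.48 CPM with AR420626, against 11.7, 26.7, 28.9, 2.34 and 11.3 CPM with vehicle, with no common direction among the mice. Gata2 had 6.67, 15.5, 21.7, 3.34 and 1.85 CPM with AR420626, against 7.95, 5.59, 9.62, 2.92 and 8.32 CPM with vehicle. The change of the agonist effect from day 2 to day 6 was called for 0 of 6 members tested, as for 0.0778% of 23141 genes.

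**Figure D5:**
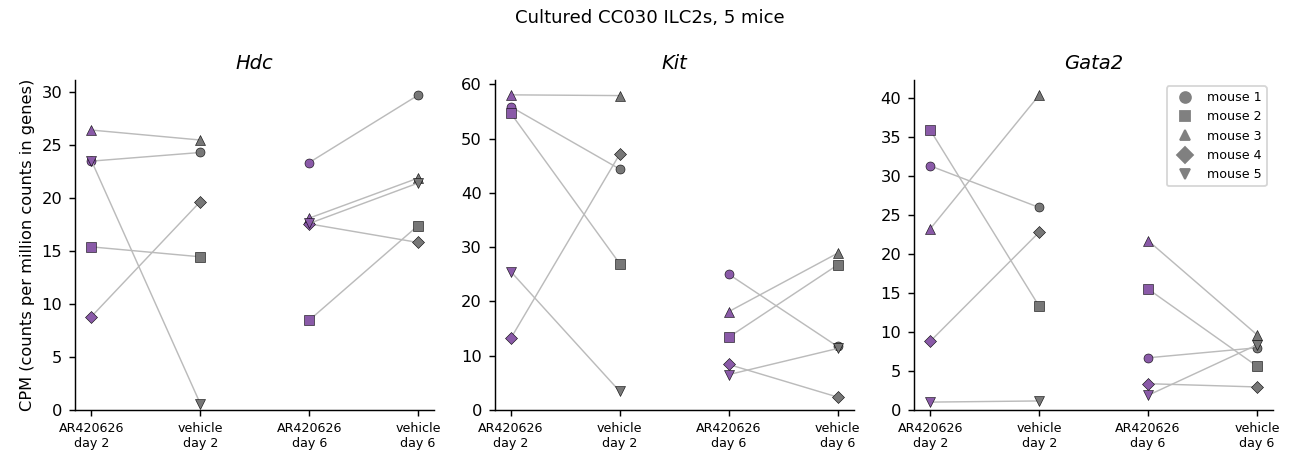
CPM of Hdc, Kit and Gata2 in cultured CC030 ILC2s of 5 mice (shape), with AR420626 (purple) left of vehicle (grey) on day 2 and day 6 and a line joining the cultures of 1 mouse. The lines cross in each panel, and on day 6 Hdc was lower with AR420626 in 4 of 5 mice.

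Between days in vehicle cultures, 1 of 4 members tested was called, against 17.3% of 15819 genes. Hdc had 29.7, 17.4, 21.9, 15.8 and 21.4 CPM on day 6, and 24.3, 14.4, 25.5, 19.7 and 0.564 CPM on day 2, so the CPM of the days overlapped. With TMM the log2 fold change, day 6 over day 2, was 1.77 ± 0.50 (SE, edgeR, adjusted p = 0.0207). On plain library totals it was 0.49 ± 0.93 (edgeR, adjusted p = 0.664), and the call was lost without mouse 1, 2, 3 or 4 (adjusted p = 0.0929, 0.0711, 0.0507 and 0.0846) but not without mouse 5 (1.62, adjusted p = 0.00321).

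The genes whose CPM ran most like a member over the 20 cultured libraries were, for Kit, Ttbk1 (Spearman's rho 0.968), Smarca4 (0.938) and Epb41l4b (0.937), for Gata2, Mr1 (0.942), Itih4 (0.937) and Adar (0.929), and for Hdc, Homer1 (0.722), Brf2 (0.705) and Rab11fip3 (0.699). The libraries share depth and culture day, and no p is given. The other 5 members had fewer than 10 counts on average.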

How the data were processed

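RNA from sorted mouse lung ILC2s was made into libraries with the SMART-Seq v4 Ultra Low Input kit. The authors trimmed reads with fastp, used STAR on mm10 for C57BL/6J, used STAR on a pseudogenome of mm9 for CC030 followed by lapels to reach mm10 coordinates, and deposited raw HTSeq counts per gene, with no normalization. The gene annotation was not given in the sources used here. No column was of another series, and HTSeq's 5 summary rows were kept out of library totals.

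Counts were divided by the total in genes (CPM) and, to compare genes, by merged exonic length from GENCODE vM21 (GRCm38). Symbols and positions matched 55141 of 55401 identifiers. Comparisons used the edgeR quasi-likelihood test (edgeR 4.0.16, R 4.3.3) with TMM scaling, filterByExpr (minimum count 10, minimum total 15) and Benjamini-Hochberg adjustment over all genes tested, at a threshold of 0.05. Log2 fold changes and their SEs are edgeR's. In the cultured comparisons the mouse was a block, since the labels number the same mouse in every culture. Same-mouse deviations from the group means correlated at -0.333 to 0.321. In 3 against 3 naïve mice, p-values measure the spread between these libraries. DESeq2 1.42.0, other scalings and filters, the block and leaving out each library were alternatives. The tests were tested on simulated counts.

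The 8 members and the lists were chosen with earlier results of these data known. All 8 members are named in the strain comparison. In the cultured comparisons only some of the members tested are given with their values. Of each other list, up to 4 genes with the smallest p between strains or the highest C57BL/6J level per kb could be named, and genes behind a count of 5 or fewer, apart from items not reported here. For members with at least 10 counts on average in culture, the 3 genes most alike were named. Promoter sequences are from RefSeq, and 8 of 8 members matched. Protein sequences were not used here.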

Additional observations from a re-analysis of the deposited data

Results flagged for a closer look

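Over the 8 genes and the 4 cultured groups of 5 libraries, 32 groups were screened for a library far from the rest. Chance gives about 1 in 20, and 2 of the 32 were flagged, near that share. The flags are descriptions. Mcpt8, the basophil protease, was at 0 CPM in AR420626 cultures on day 2 in mouse 4, with the next library at 9.79 CPM. That library had 227445 counts in genes, the fewest of all. On day 6 with AR420626, Mcpt8 was at 5.55 CPM in mouse 5, from 6 counts, with the next library at 0.833 CPM.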

How the results depend on the processing

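In the naïve strain comparison, none of the 8 genes changed direction under any alternative. Cpa3, Ms4a2, Mcpt8 and Gata2 kept their calls wherever they were tested. Of these, Ms4a2, Mcpt8 and Gata2 passed the main filter only through CC030, so a difference was built into their being tested. With at least 10 counts in every library only Kit and Hdc were tested and both were called (2 genes, with 3573 genes called in all). Under that filter 1 member was left to test on day 6, and none on day 2, between days or for the difference of effects. The median log2 fold change of all genes was 7.03 with TMM, 7.56 with DESeq2 size factors and 8.12 on plain library totals, and every member moved up by a like amount. Adding the replicate number as a block called 26602 genes and 5 members, losing Fcer1a (-1.997, adjusted p = 0.234, edgeR), which also lost its call in edgeR under both other scalings. The numbers share no mouse, and same-number deviations correlated at -0.0127 to 0.00330. Leaving out 1 library gave 23067 to 24411 genes and 5 to 6 members.

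For AR420626 on day 2, DESeq2 and no filter each called 15 genes. Plain library totals, added after seeing the data, turned Kit to 0.60, Gata2 to 0.0057 and Hdc to 0.61. Leaving out 1 mouse gave -0.24 to 0.73 for Cpa3 and -0.73 to 0.035 for Hdc. For day 6, plain totals turned Kit to 0.076 and no filter turned Gata2 to -0.10. Leaving out 1 mouse gave 604 to 1221 genes, -0.39 to 0.20 for Kit and -0.27 to 0.56 for Gata2. Between days in vehicle, plain totals called 0 members and turned Ms4a2 to -0.80. Without mice 4 and 5 there were 4337 genes and Kit was 0.32. Leaving out 1 mouse gave 994 to 5376 genes, 0 to 1 members and -0.73 to 0.18 for Kit. For the difference of effects, DESeq2 called 93 genes, 34 were called without mice 4 and 5, and no filter gave 0.027 for Kit. Leaving out 1 mouse gave 7 to 26 genes, -0.52 to 0.45 for Kit and -1.56 to 0.18 for Mcpt8. None of these members was called, and the cause of the changes was not tested.

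Without the mouse as a replicate block, 0, 995, 1956 and 2 genes were called on day 2, on day 6, between days and for the difference of effects, and only Hdc between days among members. In C57BL/6J, CPM with TMM factors gave 664 for Cpa3, 251 for Kit, 21.2 for Fcer1g and 14.3 for Hdc. The best shift was away from 0 for 8 of 8 members in the wider 8 Mb window, by Pearson correlation and in cultured libraries. Depth limits the cultured values, where 5 members averaged under 10 counts.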
